A study of Mus musculus with 2 samples.

Results

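The replication-cluster histone genes are the genes for H1, H2A, H2B, H3 and H4 whose symbols begin with Hist1h, Hist2h, Hist3h or Hist4. Members were chosen by symbol and by a minimum of 10 unique molecular identifiers (UMIs, each a captured RNA molecule) over all cells that passed the authors' quality call. By this rule 63 of 32285 genes were members, out of 67 with such a symbol. The 4 left out were Hist2h2aa2 with 4 UMIs, Hist1h2aa with 2, and Hist1h2ba and Hist1h2bq with 0 each, and the members nearest the limit were Hist1h1t with 20 UMIs and Hist1h3h with 35. The 63 members comprised 6 genes of the linker histone H1, 16 of H2A, 16 of H2B, 12 of H3 and 13 of H4.

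The cells studied were LSK cells, the bone marrow fraction without mature lineage markers and with Sca-1 and high Kit, which holds blood stem cells and early progenitors. The mice were young and either wild-type (WT) or described as IκB–, a genotype named for the inhibitors of the transcription factor NF-κB. Each of 2 replicates was 1 droplet library (10x Genomics, 3′ chemistry) in which tagged cells of both genotypes were run together, so there were 4 pools of cells. The labels do not say which IκB gene was altered, and the sources used here do not give the strain, other alleles, sex or number of mice per pool. The p-values therefore measure no more than how far these 4 pools spread, which may be technical.

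Histones package DNA: H2A, H2B, H3 and H4 form the core around which DNA is wound, and H1 binds the linker DNA between cores. The genes in these clusters are transcribed mainly while DNA is being copied, and their mRNAs normally end in a conserved stem-loop, bound by the protein Slbp, in place of a poly(A) tail. Some of them are also known to give polyadenylated transcripts that run past the stem-loop, mainly in cells that have left the cycle. The libraries were primed from poly(A), so a UMI count here is a count of captured 3′ ends and not an amount of RNA, and levels of different genes are compared only as such counts.

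The stem-loop was found in the transcripts of 45 members, and how far the annotated transcript runs beyond it is used below to group them. The stem-loops of 6 members are printed with the 16 bases of the loop and its stem in capitals (build GRCm38, GENCODE annotation). Hist1h2ap lies at chr13:21833026-21833049 on the minus strand, 3 bases from the annotated end, and Hist1h2ab at chr13:23751567-23751592 on the plus strand, 11 bases from it. Hist1h2ae lies at chr13:23570663-23570688 on the minus strand, 151 bases from the end, and Hist1h2ac at chr13:23683472-23683497 on the minus strand, 2010 bases from it. Hist3h2ba lies at chr11:58949344-58949369 and Hist3h2a at chr11:58955167-58955192, both on the plus strand and 169 and 1643 bases from their ends. The capitals are the same 16 bases in all 6, and only the flanks differ.
Hist1h2ap: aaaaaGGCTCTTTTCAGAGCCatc
Hist1h2ab: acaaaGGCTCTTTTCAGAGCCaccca
Hist1h2ae: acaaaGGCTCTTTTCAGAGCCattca
Hist1h2ac: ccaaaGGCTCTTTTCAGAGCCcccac
Hist3h2ba: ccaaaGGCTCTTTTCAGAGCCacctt
Hist3h2a: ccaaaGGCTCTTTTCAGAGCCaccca
In 3 of these the annotated transcript also holds the poly(A) signal AATAAA (capitals) near its end, at chr13:23570530-23570553 on the minus strand for Hist1h2ae, chr11:58949498-58949521 for Hist3h2ba and chr11:58956788-58956811 for Hist3h2a.
Hist1h2ae: agcttctccAATAAAtgggtcaat
Hist3h2ba: aatggtattAATAAAtttggttca
Hist3h2a: tatatgcccAATAAAataagagta

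A total of 18029 cells passed, 7683 in library 1 and 10346 in library 2, and 39 passing barcodes occurred in both libraries. The 4 pools held 42165571 to 62834572 UMIs, with median UMIs per cell of 9963 and 6983 in WT (libraries 1 and 2) and 13709 and 9641 in IκB– cells. Kit and Ly6a (Sca-1), which define the sort, were detected in every pool, at 118 to 272 and 52.4 to 117 CPM (counts of UMIs per 1e6 UMIs of the pool). Both differed between genotypes. On the log2 scale Kit was lower in IκB– (-0.53 ± 0.09, edgeR adjusted p = 0.021) and Ly6a higher (0.66 ± 0.13, edgeR adjusted p = 0.033). As a check of the genotype labels, the tags named WT and KO had median counts of 478 and 232 in WT cells of library 1 and 84 and 923 in IκB– cells. In library 2 these were 46 and 19 in WT and 7 and 93 in IκB–. WT cells thus carried KO tag as well, and its part in the genotype differences was not tested. Nfkbie was at 9.11 and 12.1 CPM in WT against 2.04 and 1.97 in IκB–, Nfkbib at 19.2 and 16.1 against 6.64 and 7.93, and Nfkbia at 47.7 and 76.0 against 42.6 and 59.7. Nfkbie (-2.30 ± 0.18, adjusted p = 0.0028) and Nfkbib (-1.19 ± 0.13, adjusted p = 0.0073) were lower in IκB– on the log2 scale, and Nfkbia was not called (adjusted p = 0.25, edgeR quasi-likelihood test). Markers of mature neutrophils summed to 1385 and 1189 CPM in WT against 188 and 209 in IκB–, and myeloid progenitor markers to 3337 and 903 against 9200 and 2481; their part in the values over all LSK cells was not tested.

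The members gave 887250 UMIs, most of them from a few H2A genes. H2A genes made up 61.5% of them, H1 genes 18.6%, H4 genes 7.66%, H2B genes 6.5% and H3 genes 5.67%. Hist1h2ap, an H2A gene, alone gave 43.6%, followed by the H2A gene Hist1h2ae with 11.7% and the H1 genes Hist1h1b with 8.20% and Hist1h1e with 5.23%. The Hist1 cluster, 51 genes over 2.05 Mb of chromosome 13, gave 96.6% of the UMIs. Hist2 (9 genes, chromosome 3) gave 2.94%, Hist3 (2 genes, chromosome 11) 0.323% and Hist4h4 (chromosome 6) 0.188%. Many members are near-copies of each other, and of the windows of 90 bases within the last 400 bases of a transcript, 19 members had every window found in no other gene, 12 had under 20% and 4 had none. Those 4 (Hist1h2ap, Hist1h1e, Hist2h2aa1 and Hist2h3c1) held 49.6% of the member UMIs, so their counts depend on how reads shared with other genes were assigned and are uncertain as counts of single genes. Of these, Hist1h1e shared windows with Hist1h2be and Gm11398, and Hist2h3c1 with Gm20634, not with members of their own histone type.

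**Figure D1:**
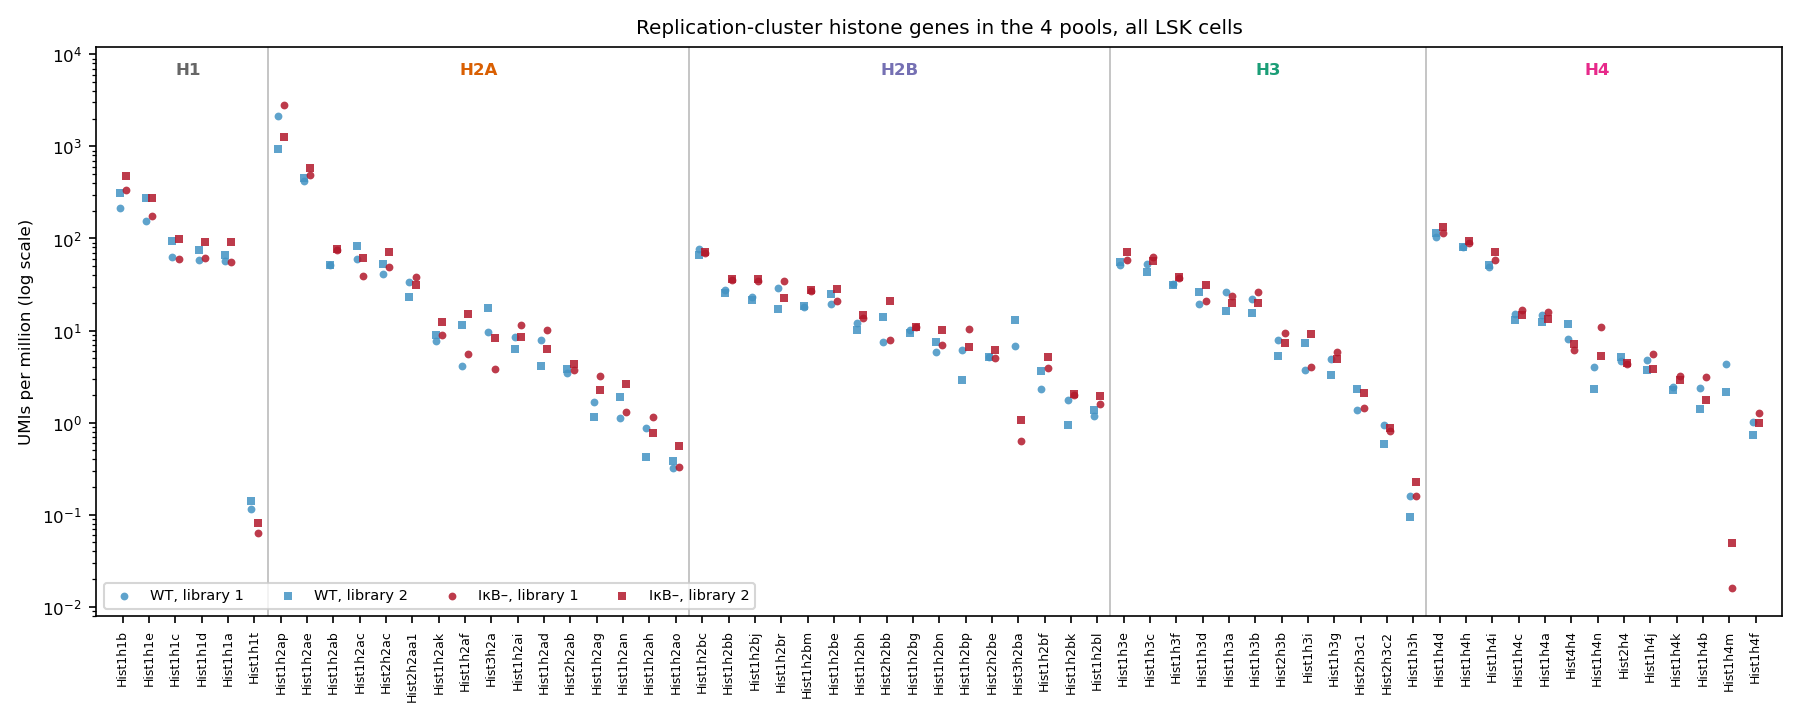
CPM (log axis) of each of the 63 members in the 4 pools, grouped by histone type, with WT in blue, IκB– in red, circles for library 1 and squares for library 2. Hist1h2ap lies above all other members in every pool, and the points of Hist3h2ba and Hist1h4m separate most by genotype.

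Summed by type, every histone type was higher in IκB– than in WT within each library, and the genotypes overlapped between libraries for H1 and H2A. All members together were at 4092 and 3228 CPM in WT (libraries 1 and 2) and 5108 and 4103 in IκB–, without overlap but with IκB– of library 2 close to WT of library 1. H2A was at 2774 and 1657 in WT against 3554 and 2150, and H1 at 548 and 818 against 690 and 1036. The libraries differed from each other in opposite directions for these types, H2A being higher and H1 lower in library 1 in both genotypes. H2B (252 and 241 against 285 and 302), H3 (223 and 208 against 250 and 262) and H4 (294 and 304 against 328 and 353) did not overlap between genotypes. In pooled values such as these, fewer cells of a type and less RNA per cell cannot be told apart.

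Over all LSK cells, 22 of 61 members tested rose in IκB– (7.13% of all genes tested were called higher) and 4 fell (6.19% of all genes were called lower). The median member was 0.41 higher on the log2 scale, against -0.01 for all genes tested, and 48 of 63 members were higher in IκB– in both libraries. The same count was not made over all genes, and near-copies among the members share reads, so the 48 are not independent. Called members were 9 higher and 2 lower of 16 for H2A, 6 higher and 1 lower of 16 for H2B, 4 higher and 0 lower of 11 for H3, 2 higher and 1 lower of 13 for H4, and 1 higher and 0 lower of 5 for H1. With total UMIs as the only scaling the median of all genes was -0.10 and the calls were 14 higher (6.50% of all genes) and 5 lower (11.3% of all genes). With the replicate block left out of the fit no member was called at an adjusted p of 0.05 (14 at an unadjusted p under 0.05), and 1 to 2 were called when any 1 pool was left out, which also drops the block, so these calls rest on comparing genotypes within a library.

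Hist1h2ap was at 2117 (WT) and 2818 (IκB–) CPM in library 1 and at 934 and 1272 in library 2. Both IκB– pools lay above the WT pool of their library, but the genotypes overlapped between libraries, and the difference was 0.52 ± 0.05 (SE; edgeR adjusted p = 0.0047). Hist1h1b, a linker histone of dividing cells, was at 213 and 308 in WT against 339 and 475 in IκB–, without overlap (0.74 ± 0.09, edgeR adjusted p = 0.0078). The H2A gene Hist1h2ab was at 51.0 and 51.4 in WT against 74.9 and 77.0 (0.66 ± 0.07, edgeR adjusted p = 0.0073), and the H2B gene Hist1h2bj at 23.0 and 21.2 against 34.5 and 35.9 (0.76 ± 0.08, edgeR adjusted p = 0.006). Neither overlapped, and in both the 2 libraries gave nearly the same levels. Hist1h2bp (1.06 ± 0.15) and Hist1h2ag (1.04 ± 0.22) rose most among the H2B and H2A genes, and Hist1h2ae by 0.35 ± 0.08.

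The other members that rose were the H2A genes Hist1h2ad, Hist1h2af, Hist1h2ai, Hist2h2aa1 and Hist2h2ac, the H2B genes Hist1h2bb, Hist1h2bh, Hist1h2bm and Hist1h2br, the H3 genes Hist1h3b, Hist1h3c, Hist1h3e and Hist1h3f, and the H4 gene Hist1h4i. Their log2 changes ran from 0.33 (Hist1h3f) to 0.69 (Hist1h2bm). Among abundant members that were not called, the H4 gene Hist1h4h was at 80.2 and 81.8 in WT against 88.8 and 93.4, without overlap (0.26 ± 0.07, edgeR adjusted p = 0.071). Hist1h1c, a linker histone gene, was at 63.5 and 93.2 in WT against 59.9 and 98.5, and the H2B gene Hist1h2bc at 76.8 and 65.7 against 69.8 and 71.2, and neither was called.

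**Figure D2:**
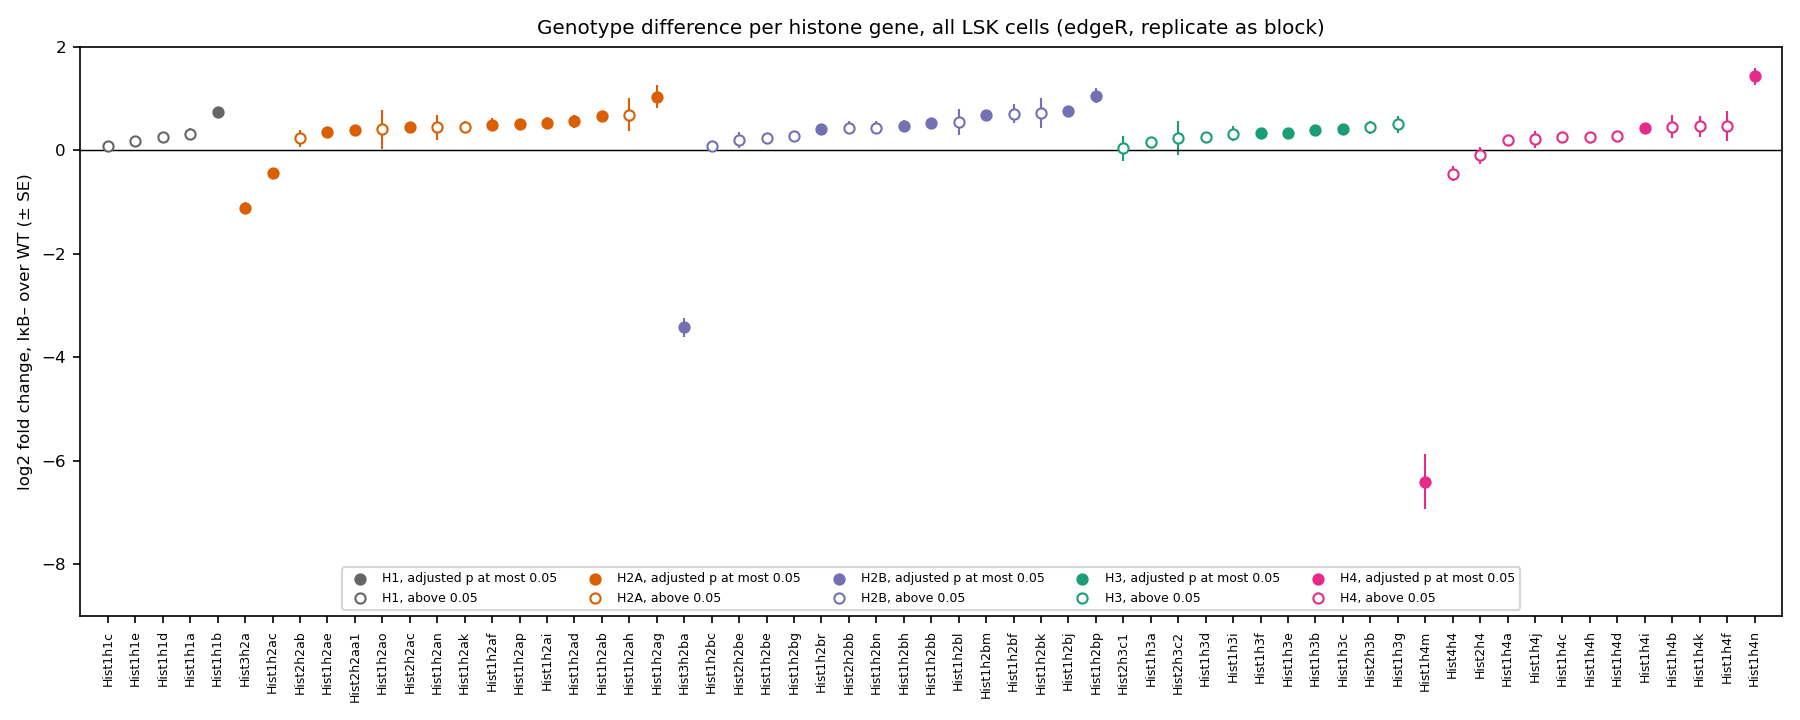
Log2 fold change of IκB– over WT over all LSK cells for each member tested, by histone type, with bars of 1 SE and filled points for an adjusted p of at most 0.05. Most points lie between 0 and 1, while Hist1h2ac, Hist3h2a, Hist3h2ba and Hist1h4m are filled points below 0.

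The 4 members that fell were Hist3h2ba, Hist3h2a, Hist1h2ac and Hist1h4m. Hist3h2ba, an H2B gene, was at 6.87 and 12.9 CPM in WT against 0.637 and 1.08 in IκB–, that is 300 and 544 UMIs against 40 and 66. IκB– levels were 9.27% (95% exact interval 6.49 to 12.9) and 8.35% (6.37 to 10.8) of WT in the 2 libraries, and the log2 difference was -3.42 ± 0.18 (edgeR adjusted p = 0.0011). The intervals cover counting error only. Its neighbour Hist3h2a, an H2A gene, was at 9.64 and 17.7 in WT against 3.84 and 8.27 in IκB– (-1.12 ± 0.12, edgeR adjusted p = 0.0058). For both genes all IκB– pools lay below all WT pools. Hist1h2ac, an H2A gene, was at 60.5 and 83.3 in WT against 39.3 and 60.8, with overlap between libraries (-0.45 ± 0.07, edgeR adjusted p = 0.020). Hist4h4, the only Hist4 member, was at 8.01 and 11.7 against 6.17 and 7.21, without overlap, and was not called (-0.45, edgeR adjusted p = 0.091).

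Hist3h2ba and Hist3h2a lie next to each other on the plus strand of chromosome 11 (chr11:58948920-58949533 and chr11:58954685-58956830). Their promoters are printed because both genes were lower in IκB– over all LSK cells. Each stretch is from RefSeq (GRCm38.p6), 250 bases before to 50 after the gene's start, at chr11:58948661-58948960 and chr11:58954435-58954734, with capitals for the CCAAT box, the TATA box with the letters TATAAA and the octamer ATTTGCAT on either strand.
Hist3h2ba: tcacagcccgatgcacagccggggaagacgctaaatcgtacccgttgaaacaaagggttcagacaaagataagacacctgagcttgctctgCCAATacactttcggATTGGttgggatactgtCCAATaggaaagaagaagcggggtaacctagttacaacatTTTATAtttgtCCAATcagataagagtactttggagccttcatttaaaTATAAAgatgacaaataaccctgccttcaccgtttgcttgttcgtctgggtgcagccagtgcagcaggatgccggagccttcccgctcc
Hist3h2a: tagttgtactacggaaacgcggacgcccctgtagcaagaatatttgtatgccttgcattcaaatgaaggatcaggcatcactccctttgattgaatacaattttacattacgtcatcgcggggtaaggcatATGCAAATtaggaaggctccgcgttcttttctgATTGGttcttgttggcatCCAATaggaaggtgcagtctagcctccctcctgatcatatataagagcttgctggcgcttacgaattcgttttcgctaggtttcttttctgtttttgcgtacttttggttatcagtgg
A promoter was found for 58 of 63 members, and on either strand CCAAT stood in 49 (84.5%, against 37.4% of 32851 promoters of the same length), TATAAA in 33 (56.9% against 13.6%) and the octamer in 11 (19.0% against 1.74%). These matches describe the letters only.

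Hist1h4m, an H4 gene, gave 190 and 90 UMIs in WT and 1 and 3 in IκB–, so that IκB– levels were 0.366% (95% exact interval 0.00921 to 2.06) and 2.29% (0.464 to 6.92) of WT (edgeR adjusted p = 0.0029). The nearby Hist1h4n moved the other way, from 4.01 and 2.30 CPM in WT to 10.9 and 5.35 in IκB–, with 1.43 ± 0.16 on the log2 scale (edgeR adjusted p = 0.0071). The pair summed to 8.36 and 4.43 in WT against 10.9 and 5.40, higher in IκB– within each library and overlapping between them. Over 402 shared transcript bases the genes differed at 1 base, G36A (Hist1h4m to Hist1h4n, counted from the 5′ end of the Hist1h4m transcript). Their promoters differed at 1 of 299 bases. The promoter stretches run to 50 bases after the start, so this may be the same base, which was not checked. The stretch around G36A is printed with the differing base in capitals. It is from chr13:21811767-21811795 on the plus strand for Hist1h4m and chr13:21832147-21832175 on the minus strand for Hist1h4n. The start codon atg follows shortly after.
Hist1h4m: acagttttgtcttcGtcatgtctggtcgt
Hist1h4n: acagttttgtcttcAtcatgtctggtcgt
Only 10.9% of the windows of 90 bases in Hist1h4m occur in no other gene, so the separate counts of this pair are uncertain, and the sum is the value that does not depend on the split between them. Both genes also share windows with other H4 genes, among them Hist1h4a and Hist1h4k. The sum therefore still depends on how reads shared with those genes were assigned.

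Cells were then placed by the share of their UMIs from 36 G1/S genes (such as Mcm5 and Pcna, of DNA replication) and 41 G2/M genes (such as Cdk1 and Top2a), lists without histone genes. Within each library, G2M-high cells were at or above the 75th percentile of the G2/M share, S-high cells at or above that of the G1/S share but below that of the G2/M share, and cycle-low cells below the median of both. These classes are ranges of a score and not cell types: 905 and 722 cells of the 2 libraries lay within 10% of the upper G1/S limit, and 363 and 262 within 10% of the upper G2/M limit.

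Histone UMIs were concentrated in G2M-high cells, which held 81.8% of member UMIs and 37.7% of all UMIs. S-high cells held 7.0% of member UMIs and 18.3% of all UMIs, and cycle-low cells 5.39% and 22.3%. Against cycle-low cells, 57 of 60 members tested were higher in G2M-high cells (32.2% of all genes were called higher) and 0 were lower (32.1% of all genes were called lower), with a median of 3.22 on the log2 scale against -0.02 for all genes. The 3 exceptions were Hist1h2bc (-0.05), Hist3h2a (0.08) and Hist3h2ba (0.22). In S-high cells 27 of 60 members were higher (29.8% of all genes) and 8 were lower (28.7% of all genes), with a median of 0.71. The cells of the classes come from the same 4 pools, which entered the fit as blocks.

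**Figure D3:**
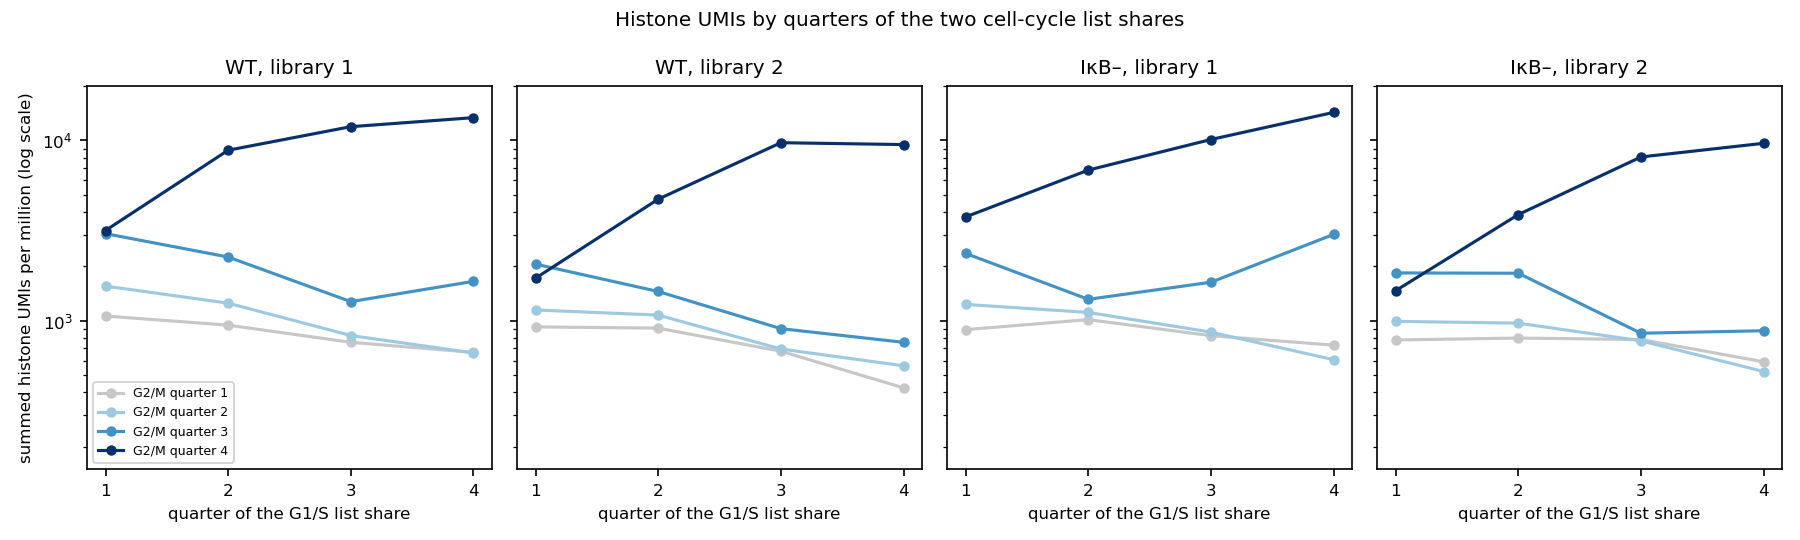
Summed member CPM (log axis) by quartile of the cells' G1/S share (horizontal) and of their G2/M share (lines, from grey for 1 to dark blue for 4), with 1 panel per pool. Quartile 4 of both lies at 9465 to 14274, whereas quartile 4 of G1/S with quartile 2 of G2/M lies at 521 to 661.

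A high G1/S share with a G2/M share below the median went with low histone sums. Cells in quartile 4 of G1/S and quartile 2 of G2/M had 521 to 661 member CPM over the 4 pools, below the 780 to 1059 of cells lowest in both shares. Cells in quartile 4 of both had 9465 to 14274, and cells in quartile 4 of G2/M and quartile 1 of G1/S 1464 to 3756. These ranges do not overlap. Cells in quartile 4 of G1/S and quartile 3 of G2/M, 441 to 703 per pool, had 757 to 3004. That range overlaps the range of cells lowest in both shares, so low sums did not extend to these cells in every pool. When G2M-high cells were divided, a division chosen after seeing the data, 45 of 58 members were higher in cells also at or above the 75th percentile of G1/S than in cells below the G1/S median (17.5% of all genes were called higher), with a median of 0.84. Hist1h1a (2.28 ± 0.24), a linker histone, and Hist1h4a (2.15 ± 0.20) had the largest log2 differences. Only Hist1h2bc (-1.64 ± 0.30), Hist3h2a (-1.10 ± 0.16) and Hist1h2ac (-0.56 ± 0.09) were lower there (15.9% of all genes were called lower).

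Hist1h2ap was at 321, 255, 123 and 97.9 CPM in cycle-low cells (WT and IκB– of library 1, then of library 2), at 716, 1497, 161 and 188 in S-high cells and at 6151, 5634, 2779 and 2635 in G2M-high cells. Every G2M-high pool lay above every pool of the other classes (4.66 ± 0.45 against cycle-low, edgeR adjusted p = 0.00015), and S-high differed less (1.49 ± 0.41, edgeR adjusted p = 0.021). Hist1h1b was at 15.6, 30.6, 17.8 and 19.8 in cycle-low cells and at 647, 669, 956 and 990 in G2M-high cells (5.53 ± 0.43). The H3 genes Hist1h3c (6.85 ± 0.56) and Hist1h3b (6.58 ± 0.52) were higher in G2M-high than in cycle-low cells by these log2 differences, and higher in S-high cells too, at 3.57 ± 0.67 and 3.52 ± 0.70. The H2A gene Hist1h2ah had 0 UMIs in all 4 cycle-low pools and 33, 56, 17 and 44 in G2M-high cells (order as above). Against a floor of 3 counts per cycle-low pool, its level in G2M-high cells was at least 5.92-fold to 11.5-fold higher, depending on the pool. Hist1h3g, an H3 gene, had 1, 1, 0 and 1 UMIs in cycle-low cells and 189, 279, 131 and 280 in G2M-high cells. Hist1h4a was higher in S-high cells by 1.96 ± 0.21 and had the smallest p of the members that were higher there, followed by Hist1h4k, another H4 gene, which had 4, 2, 3 and 3 UMIs in cycle-low and 11, 26, 5 and 8 in S-high cells.

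The members lower in S-high than in cycle-low cells were Hist3h2ba (-2.81 ± 0.21), Hist1h2bc (-1.74 ± 0.24), Hist3h2a (-1.71 ± 0.12), Hist1h2ac (-1.39 ± 0.09), Hist1h1c (-1.15 ± 0.17), Hist1h1d, Hist2h2be and Hist1h1e. Hist1h2ac was at 62.0, 46.6, 92.2 and 54.1 CPM in cycle-low cells (order as above) and at 24.4, 16.1, 24.8 and 21 in S-high cells, without overlap. Hist3h2a went from 12.9, 5.11, 22.8 and 9.92 to 3.29, 1.67, 5.83 and 2.89, lower in each pool, with overlap across genotypes. Hist1h2bc was at 98.9, 77.5, 66.3 and 80.0 in cycle-low cells, at 19.5, 35.7, 12.6 and 18.6 in S-high cells and at 83.2, 68.4, 64.8 and 62.4 in G2M-high cells. For Hist1h2bc and Hist3h2a the cycle-low and G2M-high levels were close to each other, and S-high was lowest in every pool. By type, S-high cells had 9 higher and 2 lower of 15 H2A genes, 6 and 3 of 16 H2B, 5 and 0 of 11 H3, 5 and 0 of 13 H4, and 2 and 3 of 5 H1.

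**Figure D4:**
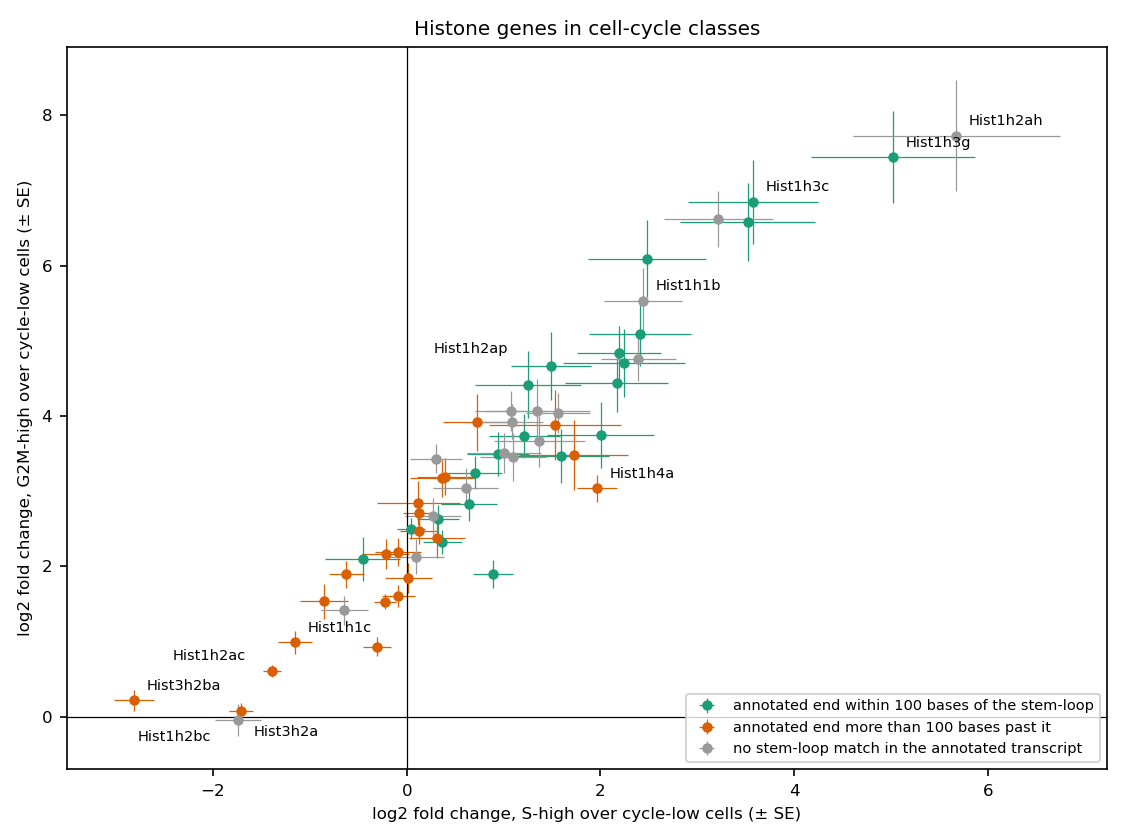
Log2 fold change of each member in S-high (horizontal) and G2M-high cells (vertical) against cycle-low cells, coloured by the annotated transcript end, with bars of 1 SE. Most members lie high on the vertical axis, Hist1h2ah and Hist1h3g are fitted against 0 or 1 UMI per cycle-low pool, and Hist1h2bc, Hist3h2a, Hist3h2ba and Hist1h2ac lie at the lower left.

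The annotated transcript end was not used to choose the members. In 22 members (54.5% of member UMIs) the transcript ended within 100 bases after the stem-loop, and their median difference between G2M-high and cycle-low cells was 3.75 (fitted values from 1.90 to 7.44). In 23 members (31.5% of UMIs), 12 with a poly(A) signal at the far end, it ran further, with a median of 2.18 (0.08 to 3.92). In S-high cells the medians were 1.49 and -0.03, and between genotypes 0.51 and 0.25. The 18 members without a stem-loop match (14% of UMIs) had medians of 3.66, 1.09 and 0.45. These medians are descriptions, as the members of a group are related genes and were measured in the same pools.

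Within G2M-high and within cycle-low cells few members were called between genotypes. In G2M-high cells 1 of 61 members was higher in IκB– (Hist1h4n, 1.04; 5.19% of all genes were called higher) and 4 were lower (3.55% of all genes), with a median of -0.07 (0.0043 with the class taken from the 90th percentile upwards). In cycle-low cells 0 of 48 were higher (4.89% of all genes) and 5 were lower (2.87% of all genes), with a median of -0.04 that ran from -0.27 without the IκB– pool of library 1 to 0.21 without the WT pool of library 1. Beside these values, G2M-high cells made up 19.4% and 18.5% of WT but 30.3% and 31.0% of IκB– cells, and cycle-low cells 44.0% and 44.9% of WT but 27.7% and 31.2% of IκB– cells. The part of these shares in the difference over all LSK cells was not tested. In G2M-high cells the summed members were at 11033 and 8551 CPM in WT and at 9828 and 7950 in IκB–, lower in IκB– within each library. By CPM, 42 of 63 members were lower in IκB– in both libraries in G2M-high cells and 5 were higher in both. In cycle-low cells 15 were lower and 14 higher in both libraries. These counts were not made over all genes, and near-copies among the members share reads.

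Members still called within the classes included those that fell over all cells. Hist3h2ba was lower in G2M-high (-3.47 ± 0.23, edgeR adjusted p = 0.00092) and in cycle-low cells (-3.27 ± 0.25), where it was at 9.38 and 15.7 CPM in WT against 1.11 and 1.43. Hist3h2a (-1.12 and -1.23 in the 2 classes), Hist1h2ac (-0.53 and -0.57) and Hist1h4m were lower in both, and Hist1h2ae in cycle-low cells (-0.36 ± 0.08). In S-high cells, 22 of 50 members were higher in IκB– (6.72% of all genes) and 0 were lower (4.76% of all genes), with a median of 0.59. That median was -0.17, with 20 of 52 members positive, without the IκB– pool of library 1, 0.33 without WT of library 2, 1.06 without WT of library 1 and 1.09 without IκB– of library 2, so leaving out 1 pool, IκB– of library 1, turned its sign. Among the members called were the H4 gene Hist1h4j (1.31 ± 0.41), the H2A gene Hist1h2ak (1.18 ± 0.38) and the H3 gene Hist1h3d (0.74 ± 0.21). Hist1h1b was at 74.6 and 51.9 in WT against 207 and 95.3 (1.28 ± 0.14, edgeR adjusted p = 3e-05), without overlap. In library 1 the S-high sum of all members was 1468 in WT and 2769 in IκB–, and in library 2 it was 720 and 847, so the 2 libraries differed in the size of the change. With both limits of the S-high class moved to the 90th percentile, 2 members were higher (3.18% of all genes) and 2 lower (2.18% of all genes), with a median of 0.095. That class was at or above the 90th percentile of the G1/S share and below that of the G2/M share. It could therefore hold cells that were G2M-high at the 75th percentile, and is not only a narrower S-high class.

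Cells were also gated by single genes: Mecom at 1 UMI or more (a stem cell regulator), Dntt at 3 or more (lymphoid), Mpo at 20 or more (granulocyte and monocyte precursors), Pf4 at 3 or more (megakaryocytes) and Car1 at 5 or more (erythroid cells). The gates can overlap, with 418 and 770 cells of the 2 libraries in more than 1. In WT libraries 1 and 2 and IκB– libraries 1 and 2, they held 1106, 1761, 738 and 1714 cells (Mecom), 748, 962, 264 and 527 (Dntt), 339, 40, 1473 and 510 (Mpo), 113, 196, 264 and 586 (Pf4) and 52, 9, 253 and 224 (Car1). Summed marker lists went with the Mpo, Dntt, Pf4 and Car1 gates. Myeloid markers were at 9529 to 17215 CPM in the Mpo gate and lymphoid markers at 2080 to 2278 in the Dntt gate. Megakaryocyte markers were at 1648 to 4982 in the Pf4 gate and erythroid markers at 3866 to 5904 in the Car1 gate. In the Mecom gate stem-like markers were at 828 and 1257 in WT and 529 and 872 in IκB–. Myeloid markers there were at 1511 and 503 in WT and 3659 and 1612 in IκB–, above the stem-like ones except in WT of library 2. In the Mpo gate the 7 mature neutrophil markers were at 9039 in the WT pool of library 2, against 296 to 832 in the other pools, and their part in the results of that gate was not tested.

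Against the Mecom gate, histone genes were higher in the Mpo and Car1 gates. In the Mpo gate 40 of 60 members were higher (26.4% of all genes were called higher) and 1, Hist3h2ba, was lower (-1.81 ± 0.32; 31.5% of all genes were called lower), with a median of 0.53. Those with the smallest p were Hist1h2bj (1.06 ± 0.15), Hist1h4a (0.76 ± 0.12), Hist1h4i (0.71 ± 0.12), Hist1h2af and Hist2h2ac. In the Car1 gate 32 of 60 were higher (24.3% of all genes) and 0 lower (29.3% of all genes), with a median of 0.58, led by Hist1h4n (1.27 ± 0.23), Hist1h2bj (0.95 ± 0.18) and Hist1h4i (0.62 ± 0.13). With total UMIs as the only scaling, which moved the median of all genes to -0.28 and -0.24, the calls were 14 higher (14.7% of all genes) and 2 lower (47.2% of all genes) in the Mpo gate and 13 higher (15.9%) and 0 lower (38.3%) in the Car1 gate. Without library 2, 17 members were called in the Mpo gate, and without library 1, 6 in the Car1 gate. G2M-high cells made up 42.2% to 70.0% of the Mpo gate and 40.3% to 66.7% of the Car1 gate, against 18.6% to 30.2% of the Mecom gate, and their part in the difference was not tested.

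The Dntt and Pf4 gates were closer to the Mecom gate. In the Dntt gate 4 of 60 members were higher (10.2% of all genes): the H2B genes Hist1h2bc (0.58) and Hist1h2bg (0.52), the H1 gene Hist1h1a (0.40) and the H4 gene Hist1h4i (0.33), and 0 were lower (11.6% of all genes). In the Pf4 gate edgeR called 0 higher (4.97% of all genes) and 0 lower (7.44% of all genes), with 1 member, the H3 gene Hist1h3a (0.25 ± 0.11), at an unadjusted p under 0.05. Hist2h2ab (0.58 ± 0.29) and Hist1h2bn (0.34 ± 0.20) were among the next by p. With gates set on cells thinned to 4000 UMIs, the Pf4 gate had 23 of 54 members higher (16.0% of all genes) and 0 lower (15.2%), and the Dntt gate 13 higher (16.0%) and 0 lower (13.6%), so these counts, for members and for all genes, depend on how the gates are set.

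**Figure D5:**
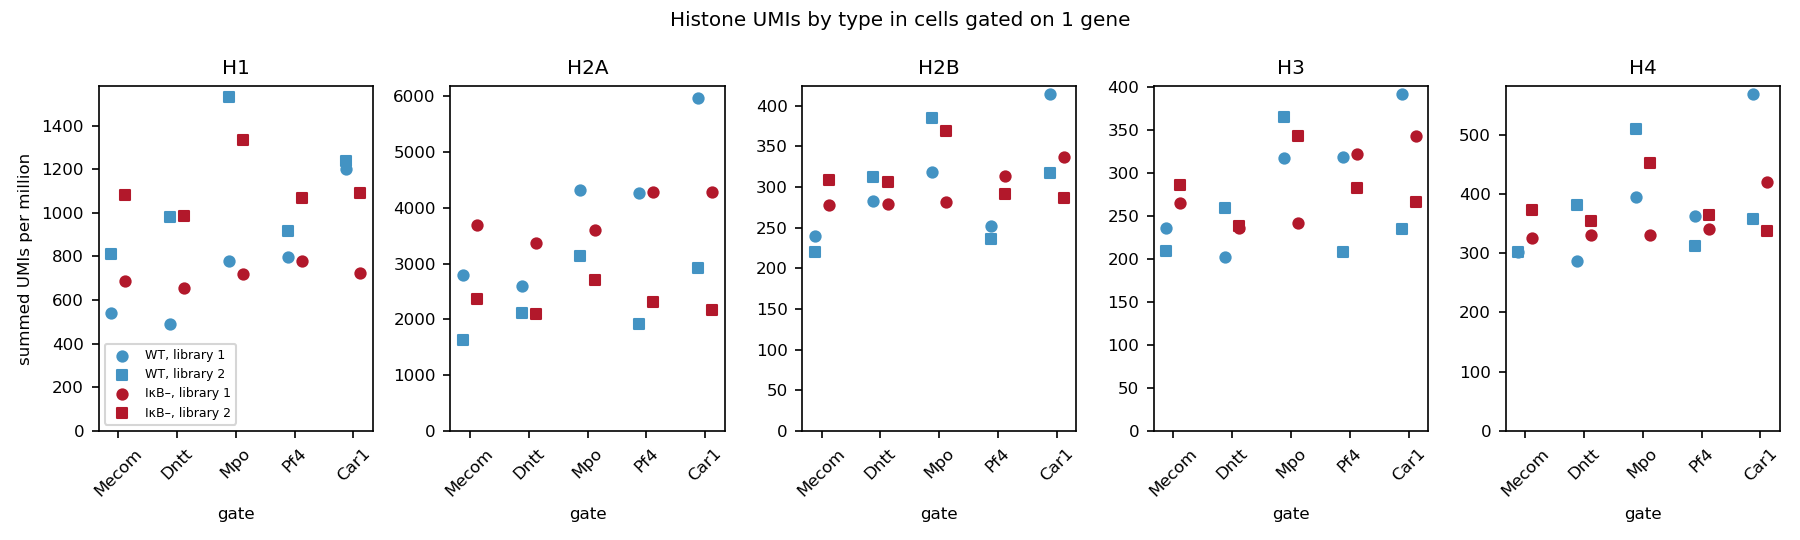
Summed CPM of each histone type in the 5 gates, with WT in blue, IκB– in red, circles for library 1 and squares for library 2. In the Mecom gate IκB– lies above WT within each library, and in the Mpo and Car1 gates H1, H2A and H2B of WT lie above IκB– within each library.

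The genotype difference varied between gates. In the Mecom gate 23 of 60 members were higher in IκB– (6.20% of all genes) and 5 lower (4.37% of all genes), with a median of 0.42, close to that over all LSK cells. Hist1h2ak (0.63 ± 0.16) and Hist1h3d (0.35 ± 0.10), not called over all cells, were among the higher ones. Hist1h2ap was at 2108 and 907 CPM in WT and at 2927 and 1388 in IκB– there (0.58 ± 0.04, edgeR adjusted p = 6.6e-06), with overlap between libraries. The 5 lower members were Hist3h2ba (-2.73 ± 0.25), Hist1h4m, Hist3h2a (-1.09 ± 0.15), Hist1h2ac (-0.34 ± 0.09) and Hist4h4 (-0.53 ± 0.15). In the Dntt gate 6 of 57 were higher (6.81% of all genes) and 5 lower (5.95% of all genes), with a median of 0.14. The 5 were Hist3h2ba (-3.57 ± 0.35), Hist1h4m, Hist3h2a (-1.13 ± 0.20), Hist4h4 (-1.13 ± 0.24) and Hist1h2ac (-0.86 ± 0.11). Hist1h2ac was at 58.8 and 94.1 in WT against 33.3 and 46.2 in IκB– in that gate, without overlap.

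In the Mpo gate 0 of 59 members were higher in IκB– (0.164% of all genes) and 1 was lower (0.138% of all genes), with 6 at an unadjusted p under 0.05 and a median of -0.19. The 1 was Hist1h4m, with 44 and 4 UMIs in WT and 0 and 0 in IκB–; against a floor of 3 counts per library it was at least 66.5-fold and 16.1-fold lower. The sign of the Mpo median depended on the processing and on 1 pool: it was 0.12 (29 of 43 members positive) with gates on thinned counts and 0.037 (31 of 60) without the IκB– pool of library 1. With Hist1h4m at its bound the medians of the Mecom and Mpo gates were 0.42 and -0.19, a setting that touches 1 member only. In the Pf4 gate 1 of 48 was higher (Hist1h2bc, 0.55 ± 0.15; 0.730% of all genes) and 1 lower (Hist3h2ba, -3.61 ± 0.51; 0.730% of all genes). In the Car1 gate 0 of 52 were higher (1.79% of all genes) and 4 lower (1.67% of all genes): Hist1h2ap (-0.50 ± 0.10), Hist1h1b (-0.68 ± 0.14), Hist3h2ba (-3.60 ± 0.97) and Hist1h2ae (-0.43 ± 0.12). Hist1h2ap was at 4643 and 1985 CPM in WT and at 3355 and 1319 in IκB– there, lower in IκB– within each library, and Hist1h1b at 617 and 629 against 291 and 543, without overlap. Hist3h2ba rested on few counts in this gate, with 8 and 2 UMIs in WT and 3 and 2 in IκB–. The WT pool of library 2 held 9 cells in the Car1 gate, and G2M-high cells made up 61.5% and 66.7% of the WT pools against 40.3% and 59.4% of the IκB– pools.

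The difference between genotype effects was tested against the Mecom gate. In the Car1 gate 12 of 59 members had a lower effect (1.99% of all genes) and 0 a higher one (1.80% of all genes), with a median of -0.61 against 0.10 for all genes. In the Mpo gate 1 of 60, Hist1h2ap, had a lower effect (-0.72 ± 0.08, edgeR adjusted p = 0.0083; 0.0462% of all genes) and 0 a higher one (0.00770% of all genes), with 26 members at an unadjusted p under 0.05. In the Dntt gate edgeR called 0 higher (0.188% of all genes) and 0 lower (0.149% of all genes), with 11 at an unadjusted p under 0.05, and in the Pf4 gate 0 higher (0% of all genes) and 0 lower (0.0238% of all genes), with 5. The gates of a pool share mice and, in part, cells, so the values compared are not independent, and how far this moves the p-values was not tested.

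Genes that process histone mRNA or carry and deposit histones were tested in the same fits. Of 12 tested genes for histone RNA 3′ processing and transcription, 0 were called in either direction over all LSK cells, with a median of 0.11. Slbp, the stem-loop binding protein, was at 114 and 115 CPM in WT against 121 and 134 (0.24 ± 0.08, edgeR adjusted p = 0.092), and Npat, a coactivator of histone genes, was not called either (0.15 ± 0.08). Of 20 histone chaperone and related genes 4 rose and 0 fell (7.13% and 6.19% of all genes; median 0.12): Asf1b (0.50 ± 0.08), Chaf1a (0.34 ± 0.07) and Nasp (0.38 ± 0.08), which carry or deposit new histones, and Hat1 (0.35 ± 0.08), which acetylates them. Asf1b was at 20.2 and 19.8 in WT against 27.2 and 25.8, without overlap.

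Over all LSK cells, where 7.13% of all genes rose and 6.19% fell, 3 of 11 replication-independent variants rose and 1 fell: Cenpa (0.72 ± 0.08), the centromere variant, H2afz (0.40 ± 0.05) and H2afj (0.43 ± 0.09) rose and H2afy (-0.24 ± 0.05), macroH2A, fell, with a median of 0.12. Of 36 G1/S genes 13 rose and 0 fell (median 0.25), among them E2f8 (0.73 ± 0.08) and Rrm2 (0.67 ± 0.07), and of 41 G2/M genes 23 rose and 1 fell (median 0.38), among them Ccnb1 (0.80 ± 0.09) and Cdca3 (0.72 ± 0.09). The median of all genes tested was -0.01. In S-high against cycle-low cells, 10 of 11 processing genes and 16 of 20 chaperone genes were higher (29.8% of all genes) and 0 lower (28.7%), with medians of 0.53 and 1.01. In the Car1 gate 0 of 36 G1/S genes were higher (1.79% of all genes) and 11 lower (1.67%) in IκB–, with a median of -0.52, and their part in the histone differences of that gate was not tested.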

How the data were processed

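RNA was counted per cell in LSK cells of 2 droplet libraries, each with WT and IκB– cells. The deposited values are raw UMI counts per gene and barcode, not normalized. Cell Ranger 6.0.0 wrote the matrices per the file headers, while the submitters' processing notes name Cell Ranger 7.0, Seurat 4.3.0 and build mm10. The sources used here do not give the gene annotation, the rules behind the authors' quality call and genotype, or how doublets were treated. All cells passing the authors' call were used, with no further filter and no doublet caller.

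Counts were summed per library and genotype, over all cells, gates or cycle classes, which gave 42165571 to 62834572 UMIs per pool over all cells. Levels are CPM (UMIs per 1e6 UMIs of the pool), computed here. Genes were tested with edgeR 4.0.16 (R 4.3.3; quasi-likelihood, robust, TMM, filterByExpr), two-sided, with Benjamini-Hochberg adjustment over all genes tested and calls at 0.05. Differences are log2, IκB– over WT, ± SE. Replicate was a block, since the labels say that the conditions of a replicate were multiplexed; same-numbered pools deviated together (correlation 0.563 over 14742 genes). On simulated counts over all LSK cells, 95% and 100% of genes changed by a log2 of 1 and 2 were called over 14742 genes, with 0.055% of unchanged ones; in the Car1 gate 43% and 88% over 9345 genes, and for S-high against cycle-low cells (not for genotype) 100% and 100% over 12897 genes. The simulation gave every gene the same preset dispersion and block noise and changed only genes above a minimum mean count. These rates therefore describe those settings and not the spread of the real pools. Changes below a log2 of 1, the range of most member differences over all LSK cells, were not simulated. No test was made over sums of members. Sequences and transcript ends came from the GRCm38 genome and RefSeq tables.

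The members and lists were chosen with earlier results of these data known. The genes named were the 20 members with most UMIs, every member called between genotypes, up to 6 members per gate with the smallest p against the Mecom gate, 10 with the smallest p and 5 lowest in S-high against cycle-low cells, and 4 per pathway list; the others (Hist4h4 over all cells, the excluded and near-limit genes, members of the exceptions and of the divided G2M-high cells) were named after their values were seen. Alternatives were DESeq2 1.42.0, no block, no filter, total UMIs as scaling, thinning to 4000 UMIs per cell, other gates and classes, and each pool left out. The divided G2M-high cells, total-UMI scaling of the tests between gate effects and the left-out pools within gates and classes were chosen after seeing the data.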

Additional observations from a re-analysis of the deposited data

Results flagged for a closer look

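The genotype difference of 13 results was not the same in a gate as in the Mecom gate, by the test of the difference itself (edgeR, log2 difference in the named gate minus that in the Mecom gate). In the Mpo gate this was Hist1h2ap at -0.72. In the Car1 gate these were the H1 genes Hist1h1b at -1.36 and Hist1h1a at -0.94 and the H2A genes Hist1h2ap at -0.99, Hist1h2ab at -1.05, Hist2h2ac at -1.01 and Hist1h2ae at -0.74. They also included the H2B genes Hist2h2bb at -1.66, Hist1h2bm at -1.26 and Hist1h2bj at -1.20, the H4 genes Hist1h4i at -0.81 and Hist1h4d at -0.60, and the H3 gene Hist1h3b at -0.92. All 13 are negative, that is, IκB– was less high or lower relative to WT in the Mpo or Car1 gate than in the Mecom gate. The WT pool of library 2 held 40 cells in the Mpo gate and 9 in the Car1 gate, and leaving out a replicate leaves no residual degree of freedom for this test.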

How the results depend on the processing

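The 2 genotypes share a library, and the calls between genotypes rest on that pairing. With no replicate block, the called members went from 26 to 0 over all LSK cells, from 28, 11, 2 and 4 to 0, 2, 0 and 0 in the Mecom, Dntt, Pf4 and Car1 gates, and from 22, 5 and 5 to 0, 0 and 1 in S-high, G2M-high and cycle-low cells. In the Mpo gate the count was 1. Of all genes tested without the block, 0 were called over all LSK cells and in S-high and G2M-high cells. Those called higher and lower were 25 and 28 (Mecom), 59 and 66 (Dntt), 9 and 10 (Mpo), 1 and 0 (Pf4) and 9 and 23 (Car1). In cycle-low cells they were 99 and 27. Leaving out 1 pool also drops the block by construction and left 1 to 2 calls over all LSK cells and in the Mecom gate, 0 to 3 in Dntt, 0 to 2 in Mpo and Car1, 0 in Pf4, 0 to 4 in S-high, and 1 to 2 in G2M-high and cycle-low cells. DESeq2 called 17 members over all cells (13 higher, 4 lower), beside 963 higher and 601 lower of all 14742 genes. It called 9, 3, 0, 0 and 1 members in the Mecom, Dntt, Mpo, Pf4 and Car1 gates. All genes called higher and lower there were 234 and 142 of 12975 (Mecom) and 104 and 71 of 11851 (Dntt). They were 15 and 21 of 11607 (Mpo), 15 and 9 of 10415 (Pf4) and 32 and 29 of 9345 (Car1). Of the members called over all cells, 3 changed sign when a pool was left out: Hist1h2ap ran from -0.29 (without IκB– replicate 1) to 1.34 (without WT replicate 1), Hist1h2br from -0.055 to 0.93 (without the same pools), and Hist1h2af was at -0.034 without WT replicate 1 and from -0.28 (without IκB– replicate 2) to 1.32 (without WT replicate 2). Of members not called, Hist1h1c (-0.19 to 0.34), Hist1h1e (-0.14 to 0.55) and Hist1h2bc (-0.086 to 0.27) also crossed 0, and members above 0 went from 55 to 48 of 61 without either IκB– pool. Hist3h2ba stayed between -3.77 and -2.99 and Hist3h2a between -1.63 and -0.67.

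Leaving cells in more than 1 gate out gave 1 call in the Pf4 gate and 2 in the Car1 gate between genotypes. Of all genes, 48 were higher and 22 lower of 9377 (Pf4) and 163 and 158 of 9021 (Car1). Against the Mecom gate it gave 8 and 5 member calls in the Dntt and Pf4 gates. Gates on thinned counts gave 6 (Dntt) and 1 (Car1) between genotypes, and 13 (Dntt) and 23 (Pf4) against the Mecom gate. Between genotypes, 381 of all 11141 genes were higher and 328 lower in Dntt, and 76 and 61 of 8727 in Car1. Total-UMI scaling gave 1 (Dntt), 16 (Mpo) and 13 (Car1) against the Mecom gate and 2 for the Mpo gate effect. Without a replicate, the counts against the Mecom gate were 0 to 4 (Dntt), 17 to 29 (Mpo), 0 (Pf4) and 6 to 29 (Car1), and between classes 25 to 27 (S-high), 57 (G2M-high) and 43 to 51 (divided G2M-high). Classes from the 90th percentile upwards gave 59 calls for S-high against cycle-low cells (55 higher, 4 lower) and 4 between genotypes in S-high cells. Cells high in G2/M alone gave 3. Member counts given in this section without a count over all genes do not show whether the members stand out.

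The log2 differences of summed members (IκB– minus WT) are means of the 2 libraries, for all, H1, H2A, H2B, H3 and H4 in turn. They were 0.57, 0.68, 0.55, 0.66, 0.42 and 0.30 within S-high cells, -0.14, -0.10, -0.13, -0.10, -0.22 and -0.23 within G2M-high cells, and -0.18, 0.0068, -0.40, -0.11, -0.074 and -0.025 within cycle-low cells. In S-high cells libraries 1 and 2 were at 0.92 and 0.23 for all members, 0.995 and 0.11 for H2A and 0.49 and 0.36 for H3. The cycle-low H1 mean came from 0.071 and -0.058. With cells thinned the means were 0.42, 0.40, 0.48 and 0.26 for all, H1, H2A and H4. The causes were not tested. The Car1 gate (9 cells in 1 pool) and Hist1h4m rest on few counts, and counts of members that share windows with near-copies are uncertain.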

Other observations

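Genes next to the Hist3 pair were looked up after its values were seen. Rnf187, which lies upstream of Hist3h2ba on the opposite strand, was at 100 and 92.6 CPM in WT against 73.4 and 71.3 in IκB– (-0.32 ± 0.07, edgeR adjusted p = 0.044). Trim11, downstream of Hist3h2a, was at 15.8 and 15.5 against 16.2 and 15.1 and was not called (0.09 ± 0.09, edgeR adjusted p = 0.52). Zfp39 (-0.33 ± 0.16) and Gm12258 (0.55 ± 0.15), also within 100 kb, were not called (edgeR adjusted p = 0.20 and 0.066).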
